A study of Rattus norvegicus with 88 samples.

Results

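Htr2a (ENSRNOG00000010063), Cnr1 (ENSRNOG00000008223) and Oprm1 (ENSRNOG00000018191) encode the receptors through which serotonin, endocannabinoids and opioid peptides act on cortical cells. They were chosen by identifier, as 3 of the 17252 genes measured in the infralimbic cortex (IL) of Heterogeneous Stock (HS) rats, by a rule that uses no measured value. The symbols came with that choice, and no table used here pairs these 3 identifiers with symbols. HS rats are bred from a mix of inbred founders without inbreeding, so that each animal carries its own mosaic of founder genomes. The study sequenced polyadenylated RNA from IL tissue dissected from both hemispheres of group-housed rats, all naïve to behavioral and drug treatment, to relate expression to genetic variation. Of 88 labelled rats, 81 were analysed here (40 females and 41 males), with 1 library per rat, and the 7 others were removed by the study's own quality filters. The labels give sex and rat batch, with 16, 25, 24, 1 and 15 rats in batches 2, 3, 4, 5 and 6, and there was no treated group.

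All 3 proteins are G protein-coupled receptors. The 5-HT2A receptor encoded by Htr2a couples to Gq and phospholipase C, is abundant on cortical pyramidal neurons, and is the main target of serotonergic psychedelics. The CB1 receptor encoded by Cnr1 and the mu receptor encoded by Oprm1 couple to Gi/o proteins; CB1 sits largely on axon terminals, where it restrains transmitter release, and the mu receptor mediates the effects of morphine and of endogenous enkephalins and endorphins. The IL is the ventral part of the rodent medial prefrontal cortex, known for its part in extinction and in the control of drug seeking.

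The deposited values were log2 of adjusted read counts plus 1, and rats are named here by sex and number. Depth here means the reads counted on the 17252 genes, not the raw reads sequenced, and was estimated from the spacing of the low values. It ran from 5.92 M reads in male 15 to 31.8 M reads. The median was 17.2 M reads and the next lowest library had 12.2 M reads. The columns of the table fell into 3 stretches of ascending rat identifiers, called column runs here, with 22, 16 and 43 rats. What a run stands for is not given in the sources used here. Batch 2 lay in run 1 except for 1 rat, batch 3 was spread over the runs as 7, 15 and 3 rats, and batches 4, 5 and 6 lay wholly in run 3. Runs could therefore be compared within a batch only in batch 3 and, through 1 rat, in batch 2. Batches could be compared only inside a run that held more than 1 of them. Median depth was 16.8, 15.2 and 19.2 M reads in runs 1, 2 and 3. Of 35 marker genes of the cell types that IL tissue could hold, 5 had a paired identifier and all were present: Neurod6 of excitatory neurons (mean log2 10.89), Vip of GABA interneurons (10.04), Aldh1l1 of astrocytes (7.92), and Itgam and P2ry12 of microglia (7.51 and 7.56). No marker of oligodendrocytes, endothelium or striatal neurons had a paired identifier, so those cells were not checked.

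Htr2a, the serotonin receptor gene, was measured well above the counting floor in every rat. Its adjusted count was 440 in the lowest rat, 1014 at the median and 1560 in the highest, a range of 3.55-fold, and its log2 level was 9.96 ± 0.38 (SD, n = 81). The lowest value belonged to male 15, the library of lowest depth, and without it the lowest count was 554. Cnr1, the cannabinoid receptor gene, had counts of 4413, 5981 and 7221 in the lowest, median and highest rat, and a log2 level of 12.52 ± 0.18 (SD, n = 81). Its range over rats was 1.64-fold, the narrowest of the 3 receptors. More reads fell on Cnr1 than on 97.4% of the genes measured and more on Htr2a than on 77.7%, on a scale that is not per length.

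Oprm1, the mu opioid receptor gene, was near the lower end of what these libraries can measure. Its adjusted count was 1 in the lowest rats, 20 at the median and 44 in the highest, and its log2 level was 4.18 ± 0.87 (SD, n = 81). Male 30 of batch 6 and male 41 of batch 2 each had 1 count and female 30 of batch 3 had 3, which is at or under the floor of 3 counts, so no fold is given against them. Male 30 and male 41 had depths of 20.1 and 23.1 M reads, above the median of 17.2 M reads. Female 30 was below it, at 13.1 M reads. In the same order as first named, the 3 libraries held Cnr1 at 7221, 4426 and 4872 counts and Htr2a at 1335, 1318 and 875 counts. The part of depth in their low Oprm1 was not tested.

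The spread between rats was then taken after sex, rat batch and column run had been removed by a linear fit. Htr2a stood out among the receptors. Its residual SD was 0.35 ± 0.03 (jackknife SE) on the log2 scale, against a median of 0.14 over the 2332 genes within 0.5 of its level, and 98.3% of those genes varied less. Counting noise expected from its reads was an SD of 0.05, or 1.74% of its residual variance. Cnr1 had a residual SD of 0.15 ± 0.02, above 75.8% of the 471 genes near its level, where the median was 0.12. Oprm1 had a residual SD of 0.73 ± 0.13, above 80.1% of the 903 genes near its level, where the median was 0.57. Counting noise alone gave Oprm1 an SD of 0.35, which was 22.8% of its residual variance, and the 3 lowest rats widened it: the scaled median absolute deviation, which they hardly move, was 0.56. Sex, batch and run together held 19.2% of the variance of Htr2a, 37.99% of that of Cnr1 and 35.3% of that of Oprm1. In bulk tissue, fewer cells of a type and less RNA per cell cannot be told apart, here and in every result that follows.

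**Figure D1:**
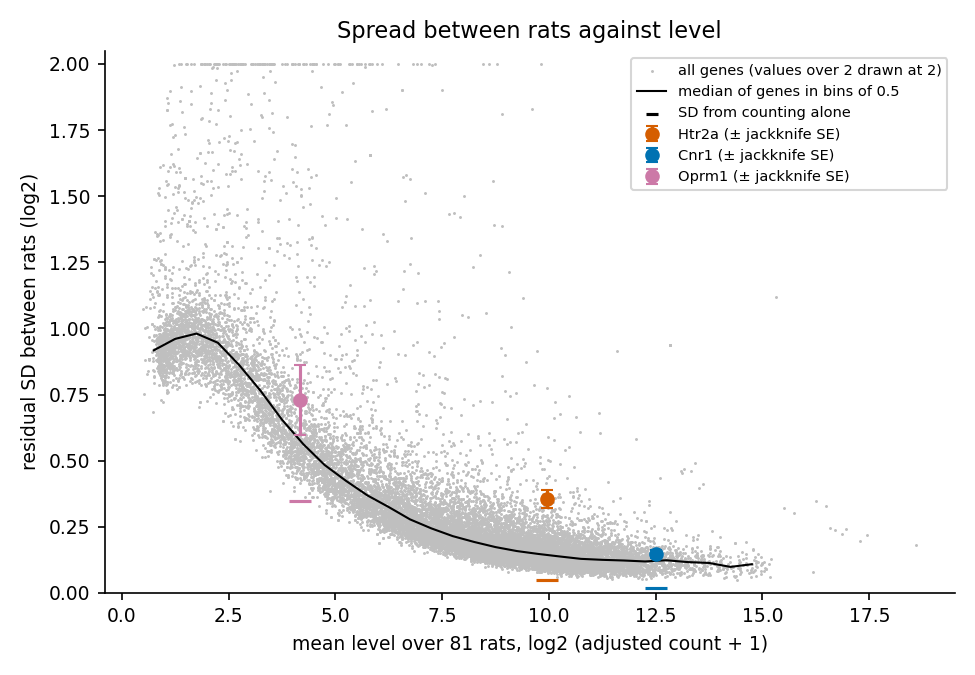
Residual SD between 81 rats (log2, after sex, rat batch and column run) against mean log2 level for all 17252 genes in grey, with the median in level bins as a black line. Points mark the 3 receptors with their jackknife SE and short horizontal dashes their counting SD; Htr2a, at 0.35, lies well above the line, whereas Cnr1 (0.15) and Oprm1 (0.73) lie closer to it.

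Sex differences in the 3 receptors were small against the spread between rats. Htr2a counts were 605, 945 and 1533 (lowest, median and highest) in females and 440, 1091 and 1560 in males. Cnr1 counts were 4436, 6141 and 7073 in females and 4413, 5779 and 7221 in males. Oprm1 counts were 3, 20 and 44 in females and 1, 18 and 39 in males. The sexes overlapped over nearly the whole range for each gene. The fitted log2 difference, male minus female with rat batch in the model, was 0.03 ± 0.08 (SE; 95% interval −0.13 to 0.18) for Htr2a, 0.00 ± 0.04 (−0.07 to 0.08) for Cnr1 and −0.22 ± 0.17 (−0.56 to 0.11) for Oprm1. None of the 3 passed limma's test after Benjamini-Hochberg adjustment over all genes (adjusted p of 0.969, 0.988 and 0.798), and 0.197% of all genes did. A sex by rat batch interaction was called by limma for 0 of 17252 genes (0% of all genes; 531 genes had an unadjusted p under 0.05), and the receptors had adjusted p of 0.996.

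When column run was not in the model, all 3 receptors passed the test of rat batch. The adjusted p of limma's F test over batches 2, 3, 4 and 6, with sex in the model (n = 80 rats), was 0.00956 for Htr2a, 0.000779 for Cnr1 and 2.37e-05 for Oprm1. Batch differences were common in this table: 57.6% of all genes passed the same test, so the calls say little about the receptors in particular. Each call ended when 1 batch was left out: the adjusted p by limma was 0.159 for Htr2a without batch 6, 0.152 for Cnr1 without batch 3 and 0.253 for Oprm1 without batch 4. With run in the model 0 of 3 passed, although the largest difference between batches in Htr2a was then 0.61 log2 in place of 0.39. The batch levels that follow hold differences between runs as well.

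Htr2a had its lowest mean in batch 6. Its lowest, median and highest counts were 789, 1136.5 and 1438 in batch 2, 696, 1115 and 1560 in batch 3, 440, 940.5 and 1457 in batch 4, and 554, 928 and 1335 in batch 6. The batches overlapped over most of their range, and the lowest rats of batches 4 and 6 lay below every rat of batches 2 and 3. Mean log2 levels were 10.09 ± 0.30 (SD, n = 16), 10.09 ± 0.29 (n = 25), 9.90 ± 0.40 (n = 24) and 9.71 ± 0.42 (n = 15) in batches 2, 3, 4 and 6. No neighbours in that order differed beyond their error, since the 95% intervals of batch 3 minus 2 (−0.21 to 0.24), batch 4 minus 3 (−0.39 to 0.00) and batch 6 minus 4 (−0.42 to 0.04) include 0. Batch 6 was lower than batch 3 by a log2 difference of −0.39 ± 0.11 (SE) and than batch 2 by −0.37 ± 0.13.

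Oprm1 was highest in batch 4. Its lowest, median and highest counts were 1, 14 and 25 in batch 2, 3, 13 and 37 in batch 3, 17, 26.5 and 44 in batch 4, and 1, 23 and 33 in batch 6. Most rats of batch 4 had counts above every rat of batch 2, while the ranges of batches 4 and 6 overlapped widely. The fitted log2 difference of batch 4 was 1.04 ± 0.24 (SE; 95% interval 0.56 to 1.52) against batch 2 and 1.07 ± 0.21 (0.65 to 1.48) against batch 3. Batches 2 and 3, at 3.73 and 3.77 log2, did not differ beyond their error (difference −0.03, interval −0.50 to 0.45). Without male 30 or male 41, the rats with 1 count, the adjusted p of the batch test was 4.65e-07 and 1.06e-05 by limma.

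Cnr1 was lowest in batch 3. Its lowest, median and highest counts were 4426, 5868.5 and 6858 in batch 2, 4453, 5525 and 6898 in batch 3, 4413, 6320.5 and 7162 in batch 4, and 5545, 5991 and 7221 in batch 6. Batch 4 was above batch 3 by a log2 difference of 0.20 ± 0.05 (SE) and batch 6 above it by 0.16 ± 0.05, whereas batches 2 and 3 (−0.07, 95% interval −0.18 to 0.03) and batches 4 and 6 (−0.04, −0.14 to 0.07) did not differ beyond their error. The only rat of batch 5, a female, had 866 counts of Htr2a, 6213 of Cnr1 and 29 of Oprm1, inside the range of the other rats of run 3 for each gene.

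**Figure D2:**
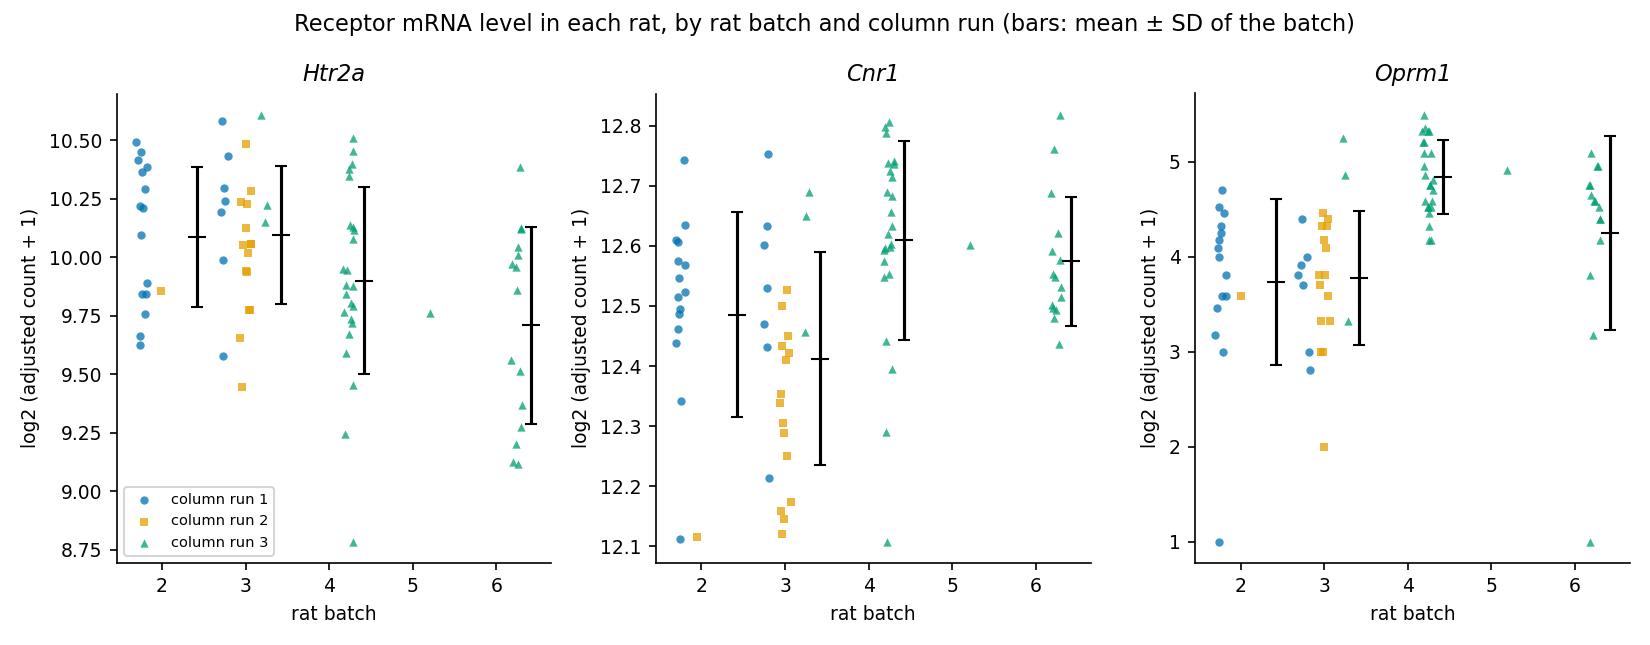
Log2 level (adjusted count + 1) of Htr2a, Cnr1 and Oprm1 in each of 81 rats by rat batch, with symbols for the 3 column runs and, beside each batch of more than 1 rat, its mean ± SD. Oprm1 is highest in batch 4 (4.84 ± 0.39), Htr2a lowest on average in batch 6 (9.71 ± 0.42), and within batch 3 the rats of run 2 have the lowest Cnr1 (mean 12.33).

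Column run and rat batch were next set in the same model. Of the 3 receptors, Cnr1 alone passed the test of run. Its lowest, median and highest counts were 4426, 5897.5 and 6898 in run 1, 4436, 5119.5 and 5902 in run 2, and 4413, 6201 and 7221 in run 3. Every rat of run 2 lay below the median rat of run 3. With sex and batch in the model, run 2 was below run 1 by a log2 difference of −0.23 ± 0.06 (SE; 95% interval −0.35 to −0.11) and run 3 was above run 2 by 0.28 ± 0.09 (0.10 to 0.47). The adjusted p by limma's F test was 0.00363 for Cnr1, 0.381 for Htr2a and 0.331 for Oprm1, so 1 of 3 receptors was called where 16.8% of all genes were. Run 3 minus run 2 was 0.32 ± 0.22 (SE; 95% interval −0.11 to 0.75) for Htr2a and 0.86 ± 0.45 (−0.04 to 1.77) for Oprm1, and whether the receptors differ in their run differences was not tested. Batch with run in the model was called for 0 of 3 receptors, with adjusted p by limma of 0.258 (Htr2a), 0.919 (Cnr1) and 0.415 (Oprm1). Of all genes, 2.76% were called. The unadjusted p by limma was 0.0331 for Htr2a. The largest difference between batches was then 0.61, 0.05 and 0.58 log2 in that order, in place of 0.39, 0.20 and 1.07 without run. Errors were wider with run in the model: Htr2a in batch 6 minus batch 2 was −0.51 ± 0.26 (SE), against −0.37 ± 0.13. For each of the 3 receptors, the share of the batch difference that belongs to run cannot be told from these rats. Cnr1 in batch 4 minus batch 2 was 0.05 ± 0.11 (SE) with run in the model and 0.13 ± 0.05 without it.

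With batch in the model, the contrast between runs rests on batch 3 and on the 1 rat of batch 2 outside run 1. A fit of batch 3 alone is therefore not a separate test of it. In batch 3, Cnr1 counts were 4750, 5911 and 6898 (lowest, median and highest) in the 7 rats of run 1. They were 4453, 5181 and 5902 in the 15 rats of run 2. Female 6, male 21 and male 26 in run 3 had 5618, 6424 and 6606. Of the rats of run 2, the highest lay just under the median of run 1. The difference between runs passed for Cnr1 (adjusted p of 0.0147 by limma, n = 25), and not for Htr2a (0.189) or Oprm1 (0.322), where 16.9% of all genes passed. It passed with each of the 25 rats left out in turn (highest adjusted p by limma 0.0389, without male 26). With depth as a covariate it did not pass (adjusted p of 0.123 by limma, unadjusted p 0.0228): the largest difference between runs was 0.20 log2 in place of 0.25, and the number of genes called in all fell from 2912 to 1586. Run 2 was the shallowest run. Over the 80 rats, which include those of batch 3, the run difference of Cnr1 with batch in the model passed with depth as a covariate. Its adjusted p was 0.0121 by limma, at 0.24 log2 in place of 0.28. Of the microglial markers, mean log2 P2ry12 was 7.32, 7.49 and 7.72 and Itgam 7.40, 7.51 and 7.57 in runs 1, 2 and 3 over all rats. With batch in the model, P2ry12 passed the run test and Itgam did not (adjusted p of 0.0256 and 0.0645 by limma), and within batch 3 Itgam passed and P2ry12 did not (0.0378 and 0.0848). For other cell types, Neurod6 was at 10.97, 10.91 and 10.84, Vip at 10.05, 10.09 and 10.01 and Aldh1l1 at 7.98, 8.01 and 7.87. The part of these markers in the receptor differences was not tested.

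Oprm1 in run 3 of batch 3 was 28, 37 and 9 counts in female 6, male 21 and male 26, against medians of 13 in its rats of run 1 and of run 2. Only 3 rats carry that contrast, which was 0.88 ± 0.48 (SE) on the log2 scale for run 3 minus run 1, and the largest difference between runs was 0.48 without male 21 and 1.41 without male 26, with no call in either case (adjusted p of 0.790 and 0.116 by limma). Htr2a in the same 3 rats was 1134, 1560 and 1194 counts, all above the median of 1061 in run 2, but only male 21, at 1560, was above the median of 1209 in run 1.

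Inside run 3, batch 6 was compared with batch 4 (15 and 24 rats) to hold run constant. The log2 difference of Oprm1 was −0.58 ± 0.22 (SE; 95% interval −1.03 to −0.14), with an unadjusted p of 0.0115 and an adjusted p of 0.135 by limma, so it did not pass. Leaving out each rat in turn gave differences from −0.63 to −0.36. The Htr2a difference was −0.19 ± 0.13 (adjusted p of 0.449 by limma) and that of Cnr1 −0.03 ± 0.05 (0.752). None of the 3 receptors was called, and 3.46% of all genes were.

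Htr2a and Cnr1 rose and fell together over rats. After sex, batch and run were taken out, Pearson's r between them was 0.583 and Spearman's rho 0.503 (n = 81; both p = 1e-05, the smallest that 100000 permutations can give; adjusted p of r 0.00021 over 105 correlations). The r was higher than that of Htr2a with 99.1% of the expressed genes, those with a mean log2 of at least 5. Its rank among the correlations of Cnr1 was not taken, and 1009 of 13047 genes had an r above 0.5 with Cnr1. Without the 2 rats farthest from the median of Htr2a, the r of Htr2a with Cnr1 was 0.475. With each rat left out in turn it stayed between 0.506 (without male 15) and 0.648. Within runs 1, 2 and 3 the r was 0.540, 0.518 and 0.628, with adjusted permutation p of 0.0252, 0.0972 and 0.000233. Male 41, with Cnr1 at 4426 and Htr2a at 1318 counts, went against the relation in run 1, where r was 0.818 without it. Estimated depth was related to both genes as well, with r of 0.349 for Htr2a (adjusted permutation p 0.0080) and 0.301 for Cnr1 (0.0252), but these fell to 0.176 and 0.150 without the 2 rats farthest from the median. The r of Htr2a with Cnr1 was 0.535 with depth as a covariate, 0.394 with the first 5 expression components as covariates and 0.342 without covariates.

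After sex, batch and run were taken out, Oprm1 passed the test with neither gene over the 81 rats. Its r with Htr2a was −0.199 (rho −0.134, permutation p of r 0.0737, n = 81) and with Cnr1 0.136 (rho 0.110, permutation p 0.223). Both depended on the setting: without covariates r was −0.264 with Htr2a (unadjusted permutation p 0.0168) and 0.356 with Cnr1 (0.00125), and without male 15 the r with Htr2a was −0.232 (0.0374). Cnr1 and Oprm1 had an r of 0.689 within run 1 (n = 22, adjusted permutation p 0.00583), 0.111 within run 2 (n = 16) and −0.252 within run 3 (n = 43, adjusted permutation p 0.214). The difference between runs 1 and 3, tested by permuting the run labels over rats, had an unadjusted p of 0.00279, for 1 of 3 pairs tested, and 0.0278 without male 41. Single rats with 1 count of Oprm1 weighed heavily on these values: without male 41 the r of run 1 was 0.450, without the 2 rats farthest from the median of Cnr1 it was 0.307, and without male 30 the r of run 3 was −0.034. Htr2a and Oprm1 were inversely related within run 3 (r −0.395, rho −0.382, n = 43, adjusted permutation p 0.0252), and r there was −0.260 without male 30. In run 1 their r was 0.083 and in run 2 −0.084. The difference of this pair between runs 1 and 3 had an unadjusted permutation p of 0.104, which was 0.0138 without male 41 and 0.205 without male 30.

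**Figure D3:**
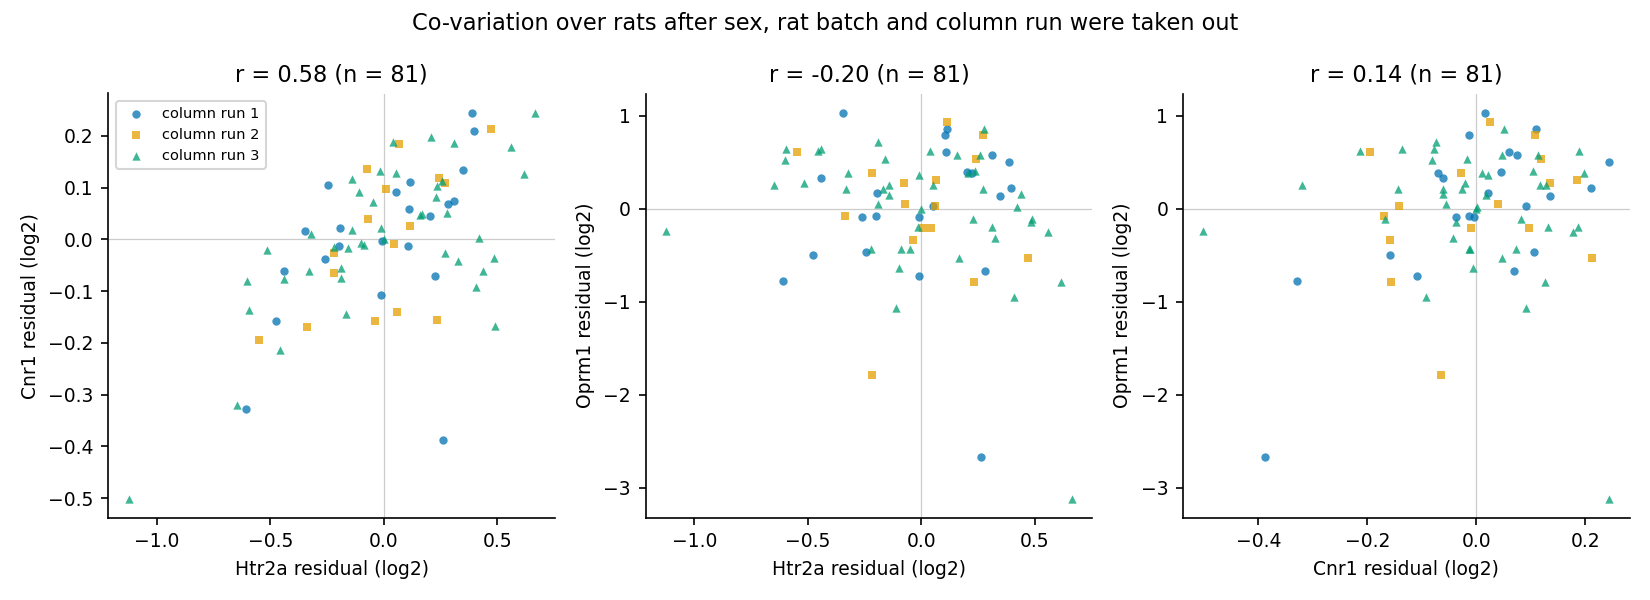
Residual log2 levels after sex, rat batch and column run for the 3 pairs of receptors, 1 point per rat (n = 81), with symbols for column runs. Htr2a and Cnr1 rise together in each run (r = 0.58); in the panels with Oprm1 the 3 lowest points are the rats with 1 or 3 counts, and the relation over all rats is weak (r = −0.20 and 0.14).

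Genes whose level followed each receptor most closely were ranked over the 13048 expressed genes, as a description with no test, since the extremes of a ranking are large by choice. For Htr2a the closest were ENSRNOG00000025463 (r 0.862) and ENSRNOG00000037435 (0.799), which have no paired symbol. The most opposed was Ntsr1, a neurotensin receptor gene that marks deep-layer corticothalamic neurons, with r of −0.824 (rho −0.818), and it held within each run at −0.814, −0.789 and −0.843. ENSRNOG00000019316 followed at −0.759. In all, 245 genes had an r above 0.5 with Htr2a and 156 below −0.5.

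Cnr1 moved with a larger part of the transcriptome, with 1009 genes above 0.5 and 835 below −0.5. Its closest genes were ENSRNOG00000010084 (r 0.844) and Slc4a10 (0.843), a sodium bicarbonate transporter of neurons, and its most opposed were ENSRNOG00000006004 (−0.763) and ENSRNOG00000009760 (−0.759).

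Oprm1 had weaker neighbours. Its closest were ENSRNOG00000024089 (r 0.628) and ENSRNOG00000030149 (0.627) and its most opposed ENSRNOG00000039350 (−0.652) and Gstz1 (−0.626), an enzyme of tyrosine breakdown. Without the 2 rats farthest from the median of Oprm1 these were 0.455, 0.454, −0.537 and −0.494. At this count level, 169 genes lay above 0.5 and 156 below −0.5.

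Other genes of the serotonin, cannabinoid and opioid pathways were described from lists of 69 symbols, of which 25 had a paired identifier. The pairs came from the study's tables of genes with local expression variants in rats of this cohort, so these genes are not a neutral sample. Among receptors, mean log2 levels were 6.63 for Htr1a, 3.40 for Htr1f, 7.70 for the channel Htr3a, 4.15 for Cnr2, 6.02 for Oprd1, the delta opioid receptor, and 9.49 for Oprl1, the nociceptin receptor. Among ligand genes, Penk, the enkephalin precursor, was at 10.46 and Pdyn, the dynorphin precursor, at 9.19. Among endocannabinoid enzymes, Faah, which breaks down anandamide, was at 10.07, Mgll and Abhd12, which break down 2-arachidonoylglycerol, at 10.12 and 11.46, and Napepld, an enzyme of anandamide synthesis, at 7.08.

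None of the 25 pathway genes differed by sex by limma at an adjusted p under 0.05. Rat batch was called for 14 of 25, against 57.6% of all genes, and these included Htr1f, Oprd1, Oprl1, Penk, Napepld, Mgll, Abhd12, Gnas and Arrb1. Column run, with batch in the model, was called for 3 of 25, Abhd12, Gnas and Arrb1, against 16.8% of all genes. Gnas encodes the stimulatory G protein subunit and Arrb1 a beta-arrestin that desensitizes receptors. Within batch 3, whose rats also carry most of that run contrast, the same 3 of 25 were called, against 16.9% of all genes. For Abhd12, mean log2 was 11.48, 11.64 and 11.38 in runs 1, 2 and 3, so it was highest in run 2, where Cnr1 was lowest, and Gnas had means of 12.87, 13.05 and 12.69.

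Over rats, 5 of the 25 pathway genes were positively and 3 negatively correlated with Htr2a past an adjusted permutation p of 0.05. As background, 9.36% of expressed genes had a positive and 9.82% a negative correlation at least as strong as the weakest of these. Adcy2, an adenylyl cyclase, had r of 0.497 and rho of 0.557 (adjusted permutation p 0.00021), and Plcb1, the phospholipase C that Gq activates, had r of 0.417 and rho of 0.375 (0.00105). Pdyn was inversely related, with r of −0.379 and rho of −0.353 (0.00266), as was Oprl1, at −0.303 and −0.353 (0.0214). Each of these 4 kept an r beyond 0.3 in size without the 2 rats farthest from the median of Htr2a. Napepld and Arrb2 passed by r (0.314 and −0.303) but not by rho (adjusted permutation p of 0.062 and 0.114). Their r was 0.232 and −0.178 without those 2 rats.

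With Cnr1, 6 of 25 pathway genes were positively and 5 negatively correlated, where 21% and 14.3% of expressed genes were at least as strongly related, so the counts lay near the background. Plcb1 had the highest r of the list, at 0.700 with rho of 0.686 (adjusted permutation p 0.00021, r 0.623 without 2 rats), above 99.0% of expressed genes. Abhd12 and Faah had r of −0.518 and −0.387 with rho of −0.438 and −0.372 (0.000233 and 0.00252), where 5.26% and 14.3% of expressed genes had a lower r. Mgll, which like Abhd12 breaks down 2-arachidonoylglycerol, had r of 0.115 (adjusted permutation p 0.436). Kcnj3, a subunit of the potassium channel that Gi/o-coupled receptors open, had r of 0.533 and rho of 0.363 (0.000233), and r was 0.357 without 2 rats. Htr1a, Napepld and Arrb1 passed by r (0.292, 0.299 and 0.306) but not by rho (adjusted permutation p of 0.254, 0.138 and 0.453). Their r was 0.153, 0.132 and 0.104 without 2 rats.

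With Oprm1, 3 of 25 were positively and 2 negatively correlated, where 10% and 9.15% of expressed genes were at least as strongly related. The counts lay near the background. Kcnj3, Arrb1 and Arrb2 passed by r (0.342, 0.342 and −0.323) but not by rho (adjusted permutation p of 0.254, 0.256 and 0.254). Abhd12 had r of −0.477 and rho of −0.410 (adjusted permutation p 0.000382), and Oprl1, a relative of Oprm1 in the opioid receptor family, had r of 0.364 and rho of 0.359 (0.00564). The sign for Oprl1 was the opposite of that with Htr2a. Whether these correlations differ between the receptors was not tested.

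The 1 marker found for excitatory neurons and the 1 for GABA interneurons were correlated positively with Htr2a and Cnr1 and negatively with Oprm1. Neurod6 had r of 0.596 with Htr2a, 0.426 with Cnr1 and −0.342 with Oprm1, and Vip had r of 0.573, 0.372 and −0.328, each with an adjusted permutation p under 0.05 (from 0.00021 to 0.0125; n = 81). Of expressed genes, 99.2% had a lower r with Htr2a than Neurod6 had, and 99.0% a lower one than Vip. For Cnr1 these shares were 88.0% and 84.8%, and for Oprm1 7.84% and 8.85%. The r of Vip with Oprm1 was −0.123 without the 2 rats farthest from the median of Oprm1. Aldh1l1 and Itgam passed with none of the receptors (r from −0.176 to 0.152). P2ry12 passed with Cnr1 alone (r 0.332, adjusted permutation p 0.0106), where 82.0% of expressed genes had a lower r. The part that these cell types have in the co-variation of the receptors was not tested.

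**Figure D4:**
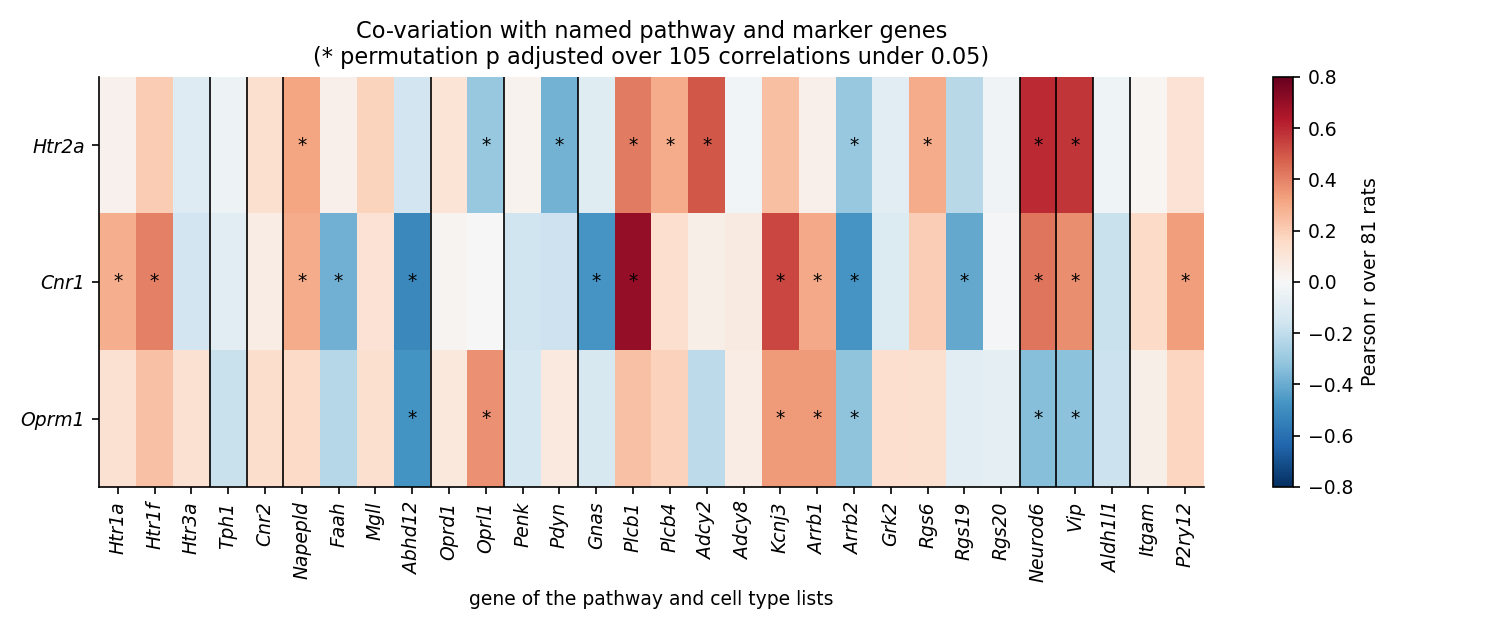
Pearson's r over 81 rats of Htr2a, Cnr1 and Oprm1 (vertical) with 25 pathway genes and 5 cell type markers (horizontal, lists parted by lines), after sex, rat batch and column run; colour gives r from −0.8 to 0.8 and a star an adjusted permutation p under 0.05. Plcb1 with Cnr1 (0.700) is the strongest, and Neurod6 and Vip are positive with Htr2a and Cnr1 and negative with Oprm1.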

How the data were processed

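Poly(A) RNA-seq of IL tissue from 88 rats gave 1 table with 81 columns, 1 for each rat that the labels do not mark as removed. Per the study's methods and the submitters' processing notes, the authors trimmed reads with cutadapt, quantified them with RSEM on rat transcripts from Ensembl, applied an upper quartile adjustment with DESeq2, and dropped libraries with low read counts, mismatched genotypes or outlying expression. The build listed is Rnor_6.0, and tool versions are not given in the sources used here. The deposited values are log2 of the adjusted count plus a pseudocount of 1, and 100.0% of adjusted counts under 100 were whole within 0.01. Adjusted counts are not raw reads, and rounding prevents the recovery of reads in libraries where 1 read was worth less than 1, so no count model was used. Depth was estimated from the spacing of whole numbers. In 44 libraries some whole number up to 60 was used by no gene, so 1 read was worth more than 1 there, and in the other 37 it was taken to be worth 0.52 or more. This rule on unused numbers was added after first estimates were seen, and it changed the depth of 1 library. The floor and the counting SD cover counting error only. Intervals of fitted differences rest on the residual spread between rats in the limma fits.

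Groups were taken from the labels for sex and rat batch and from column order for run. Replicate numbers only name rats. Differences were tested with limma 3.58.1 in R 4.3.3 (lmFit and eBayes with an intensity trend) over all 17252 genes with Benjamini-Hochberg adjustment at 0.05. Batch tests left out the single rat of batch 5. Co-variation was measured on residuals after sex, batch and run in Python 3.11.15 with 100000 permutations, two-sided, over 105 correlations. Rats were treated as independent although some may be related. The scripts were tested on simulated data.

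The rule that gave the 3 receptors used no measured value. Earlier results of these data were nevertheless known when the receptors, the gene lists and the tests were chosen. Genes named were the receptors, listed genes that passed a test or had a high mean in their list, and, for each receptor, the 2 genes of highest and of lowest r among those with a mean log2 of at least 5. The correlations with listed genes, markers and depth, the comparison of correlations between runs and the omission of single rats were added after values were seen. Symbols of other genes came from 3335 pairs in the study's tables, of which 3293 are in the expression table. No genome or transcript length of this build was used here, so no positions are given and levels are not compared between genes per length. No receptor sequence is printed, since none was at hand that the data bear on.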

Additional observations from a re-analysis of the deposited data

Results flagged for a closer look

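Over the 3 receptors, 21 sets of values from 4 to 10 rats alike in sex and batch, sex and run, or batch and run were examined, and in 5 of them 1 rat was set apart from the others by a gap that is large for the group's range (Dixon's test). Chance alone sets a rat apart in about 1 in 20 groups. Among the 4 females of batch 2, female 40 had the highest Htr2a at 10.29 log2, with the next rat at 9.89, which is 0.89 of the range. In the same 4 rats, female 2 had the lowest Cnr1 at 12.12, with a gap of 0.829 of the range, and it is the only rat of batch 2 in run 2. Among the 7 males of batch 6, male 30 had the highest Cnr1 of all 81 rats, at 12.82, with a gap of 0.695 of the range. The same rat had the lowest Oprm1 of its group at 1.00 log2, which is 1 count, with a gap of 0.578. Among the 8 females of run 1, female 37 had the lowest Cnr1 at 12.21, with a gap of 0.574 of the range.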

How the results depend on the processing

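No paired analysis was possible within the IL, because each rat had 1 IL library here and the numbers only name rats. The sex differences, none of which passed a test, changed sign under some settings. For Cnr1 the log2 difference was −0.0626 on inverse normal values (in SD units), −0.00389 without batch 2, −0.0333 without batch 3, −0.0015 with column run as a covariate and −0.0939 with the first 5 expression components (of residuals after batch) as covariates. For Htr2a it was −0.0614 without batch 3 and −0.16 with 5 components, and for Oprm1 0.88 with 5 components (adjusted p by limma of 0.188). All genes called by sex numbered 34, but 18, 19 and 20 without batches 3, 4 and 6 and 877 with 5 components. Leaving out a batch ended a batch call for each gene: the adjusted p by limma was 0.159 for Htr2a without batch 6, 0.152 for Cnr1 without batch 3 and 0.253 for Oprm1 without batch 4. The Cnr1 run difference within batch 3 had an adjusted p by limma of 0.123 with depth as a covariate (0.20 log2 in place of 0.25), where 1586 genes were called in place of 2912, while over 80 rats with batch in the model it passed with depth (0.0121). A pseudocount of 10 gave 1 gene for the sex by batch interaction in place of 0. The correlation of Htr2a and Oprm1 was −0.264 without covariates, −0.232 without male 15, −0.395 in run 3 and 0.083 in run 1. That of Cnr1 and Oprm1 was 0.356 without covariates, 0.689 in run 1 and −0.252 in run 3. The residual SD of Oprm1 was 0.39 with a pseudocount of 10 and 0.56 as a scaled median absolute deviation, and that of Cnr1 was 0.12 by the latter. The cause of these changes was not tested. The correlation of Htr2a and Cnr1 kept its sign and an unadjusted permutation p under 0.05 under all 9 alternatives run, with r from 0.342 to 0.628. The counting SD was 0.35 log2 for Oprm1, 0.05 for Htr2a and 0.02 for Cnr1. A change of that size in a single rat cannot be told from counting error. The r of Oprm1 with estimated depth was −0.078 (adjusted permutation p 0.579), and the part of depth in its values was not tested.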
